A study of Caenorhabditis elegans with 2 samples.

Results

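The genes rpr-1, mrpr-1 and yrn-1 of Caenorhabditis elegans encode the RNA of RNase P, the RNA of RNase MRP and the Y RNA. They are 3 of the 46890 annotated nuclear genes, chosen by symbol. Binding of APTF-3, a worm member of the AP-2 transcription factor family, had been mapped by chromatin immunoprecipitation and sequencing (ChIP-seq) in whole young adults at 64 h, in 2 biological replicates of 1 group, grown from larvae that had been bleached and starved for synchrony. The strain, OP765, carried the integrated transgene wgIs765, in which aptf-3 is fused to TY1, EGFP and 3xFLAG, together with unc-119(+), in an unc-119 (tm4063) mutant background. An antibody to GFP was used for the precipitation, on chromatin sonicated to 200 to 800 bp. The tagged protein came from a transgene, whole animals mix all tissues, and all samples are of this 1 strain, so there is no contrast between conditions here.

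RNase P trims the 5′ ends of precursor tRNAs, and RNase MRP, its close relative, acts in the maturation of ribosomal RNA. Both are complexes of 1 catalytic RNA with proteins. Y RNAs are short stem-loop RNAs bound by the Ro protein and are linked to RNA quality control. In vertebrates, genes for these RNAs are transcribed by RNA polymerase III from promoters that lie before the gene, with a TATA box and a proximal sequence element that recruits the SNAPc complex, as at U6 snRNA genes. Most tRNA genes instead carry internal promoter elements, the A box and the B box.

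The 3 genes differed in their peaks. At rpr-1 every list held a peak, at mrpr-1 the series-level lists held one and the replicates' thresholded lists did not, and at yrn-1 no thresholded list held one. The lists are those deposited for the series, a main and a conservative set, and for each replicate. Each set has a ranked list of all candidate peaks and a shorter thresholded list. The irreproducible discovery rate (IDR) is a measure of how poorly a peak's rank repeats between inputs. It was 0.01 or less, which is 2 or more as −log10, for all 785 peaks of the main thresholded list. Another 63 ranked peaks also met that value and were not listed. Each peak has a signal, set by the authors, whose scale the labels and file notes leave undefined. The genes had been proposed with these peaks known and the rule reads every list, so counts, signals and ranks are descriptions and no test was made. Read totals are not part of these files, so the depth is unknown and no counting interval is given.

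To show what lay under the peaks, the reference sequence (RefSeq, build WBcel235, which is ce11) is given for the main-list peak at mrpr-1, chrII:7200109-7200404 on the plus strand. The stretch with the same offsets from the gene's start is given for yrn-1, chrIV:7499384-7499679 on the plus strand. Capitals mark the annotated gene.
mrpr-1: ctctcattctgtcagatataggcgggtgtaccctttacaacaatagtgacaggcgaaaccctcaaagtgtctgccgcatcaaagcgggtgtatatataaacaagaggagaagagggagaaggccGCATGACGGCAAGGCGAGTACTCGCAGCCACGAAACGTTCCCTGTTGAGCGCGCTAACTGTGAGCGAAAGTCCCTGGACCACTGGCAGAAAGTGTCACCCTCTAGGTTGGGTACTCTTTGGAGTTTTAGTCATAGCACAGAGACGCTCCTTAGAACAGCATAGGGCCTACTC
yrn-1: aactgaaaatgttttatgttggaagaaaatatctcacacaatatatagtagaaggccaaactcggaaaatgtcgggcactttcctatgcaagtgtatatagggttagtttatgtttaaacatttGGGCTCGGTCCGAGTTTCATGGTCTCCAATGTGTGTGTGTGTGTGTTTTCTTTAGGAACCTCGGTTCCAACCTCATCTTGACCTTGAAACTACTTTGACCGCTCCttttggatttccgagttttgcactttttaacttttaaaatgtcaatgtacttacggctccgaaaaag
The 296 bases run from position -124 to position 171, where the first base of the gene is position 0. The mrpr-1 summit is at position 24, within the capitals.

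The second pair of sequences shows the 60 bases just before each gene, chrII:7200173-7200232 for mrpr-1 and chrIV:7499448-7499507 for yrn-1, both on the plus strand. Capitals mark matches to the TATA box letters TATANA on the gene's strand.
mrpr-1: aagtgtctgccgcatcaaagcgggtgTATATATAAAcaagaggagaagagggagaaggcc
yrn-1: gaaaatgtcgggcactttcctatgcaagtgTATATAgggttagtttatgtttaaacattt
Both genes have a match that begins at position -30, and mrpr-1 has overlapping matches that begin at -34 and -32.

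rpr-1 carried the strongest of these peaks. The gene (WBGene00045238, 253 bp) lies on the plus strand of chromosome I from 13463955 to 13464207, in intron 5 of ints-8, which encodes an Integrator complex subunit and runs on the opposite strand. The main-list peak spanned 13463836 to 13464131, with its summit 29 bp past the 5′ end of rpr-1 and a signal of 185. It ranked 16 of 785 peaks by signal, at 2.41 times the list's median of 76.6. In the main ranked list, where signals reached 1526, the same peak ranked 27 of 99784. Some candidates with a higher signal were thus not in the thresholded list. In the replicates' thresholded lists the signal was 74.0 in replicate 1, rank 37 of 178, and 108 in replicate 2, rank 13 of 241. The summits of the replicates lay 28 and 29 bp past the 5′ end, so the position differed by 1 base between them. The −log10 IDR was 4.04 in the main ranked list, 3.81 in the conservative one, 2.95 in replicate 1 and 3.88 in replicate 2. All 4 were above 2.

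The peak in ints-8 was the one at rpr-1. ints-8 (WBGene00013021, 13455356 to 13470371, minus strand) held 1 main-list summit, the one at rpr-1, which was 6387 bp from the 5′ end of ints-8. Of the 12 main ranked summits inside ints-8, the second highest signal was 33.5. Within 500 bp of the 5′ end of ints-8 the main ranked list had 0 summits. The conservative ranked list and the ranked lists of replicates 1 and 2 had 1 each there, with signals of 14.9, 20.6 and 15.0. Within 5000 bp of the start of rpr-1, beyond 500 bp from the gene, the main ranked list had 9 other summits, with signals of 3.76 to 33.5 and a median of 15.1. Replicate 1 had 5, of 5.51 to 20.7, and replicate 2 had 5, of 7.46 to 17.9. The rpr-1 peak was above all of these in each of the 3 ranked lists. None of its bases were soft-masked (0%), the mark of repeats in the reference, and 58.1% were G or C.

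mrpr-1 had a weaker peak, in the main and the conservative list. The gene (WBGene00045095, 186 bp) lies on the plus strand of chromosome II from 7200233 to 7200418, between E04F6.6 and pcrg-1, and overlaps no other gene. The main-list peak, whose sequence is given above, had a signal of 90.5 and ranked 217 of 785, at 1.18 times the median. In the conservative list the same coordinates ranked 215 of 675. The ranked lists of the replicates had signals of 48.0 in replicate 1, rank 239 of 85218, and 40.3 in replicate 2, rank 702 of 72073. Both were above the medians of their ranked lists, 13.3 and 14.4, and below the medians of the thresholded lists, 57.4 and 58.6.

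The IDR threshold of 2 (−log10) separated the series lists from the replicates at mrpr-1. The value was 2.62 in the main and 2.68 in the conservative ranked list, inside it, and 1.70 in replicate 1 and 0.98 in replicate 2, outside it. The replicate 2 value is an IDR of 0.105, and its signal of 40.3 lay below 47.1, the lowest 10% point of that replicate's thresholded list. The summit was 24 bp past the 5′ end in the main list, 66 bp in replicate 1 and 25 bp in replicate 2. In all of these lists the summit lay inside the gene.

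The mrpr-1 peak also lies near a protein-coding gene. Its summit was 292 bp before the 5′ end of pcrg-1 (WBGene00017122, 7200549 to 7201882, plus strand), which starts 131 bp past the end of mrpr-1. The chromatin fragments were 200 to 800 bp, and whether the peak belongs to mrpr-1 or to pcrg-1 was not tested. A second ranked summit lay between the genes, 75 bp before pcrg-1 in the main ranked list, with a signal of 7.94 (rank 88599 of 99784). In replicate 2 it lay 92 bp before pcrg-1, with a signal of 3.17. Replicate 1 had none there. Within 5000 bp of the start of mrpr-1, beyond 500 bp from the gene, the main ranked list had 13 other summits of 3.31 to 43.0. Replicate 1 had 8, of 2.05 to 21, and replicate 2 had 5, of 4.14 to 24.7. The mrpr-1 peak was above these in each list. Of its bases 51.4% were G or C and 0.676% were soft-masked.

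yrn-1 had no summit within 500 bp in any thresholded list. The gene (WBGene00006967, 105 bp) lies on the plus strand of chromosome IV from 7499508 to 7499612, in intron 6 of F55G1.15, which runs on the minus strand, and it overlaps the noncoding gene F55G1.20, also on the minus strand. The nearest main-list summit was 12647 bp away, with a signal of 82.5. In the main ranked list the nearest summit was 6409 bp past the gene and the next on the other side 10795 bp before it. By that measure 23.3% of annotated genes were at least as far from a main ranked summit, and the median gene was 134 bp from one.

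The replicates' ranked lists differed around yrn-1. In replicate 2 the nearest summit was 7429 bp away, and 15.2% of genes were as far. In replicate 1 a summit lay 302 bp past the gene, with a signal of 6.67 (rank 72761 of 85218) and a −log10 IDR of 0.08, which is inside the limit of 500 bp in that list alone. The next replicate 1 summits, beyond the limit at 760 and 765 bp from the gene, had signals of 16.6 and 14, and the list's median was 13.3. A gene without a peak in these lists may still have had signal below what the lists record.

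**Figure D1:**
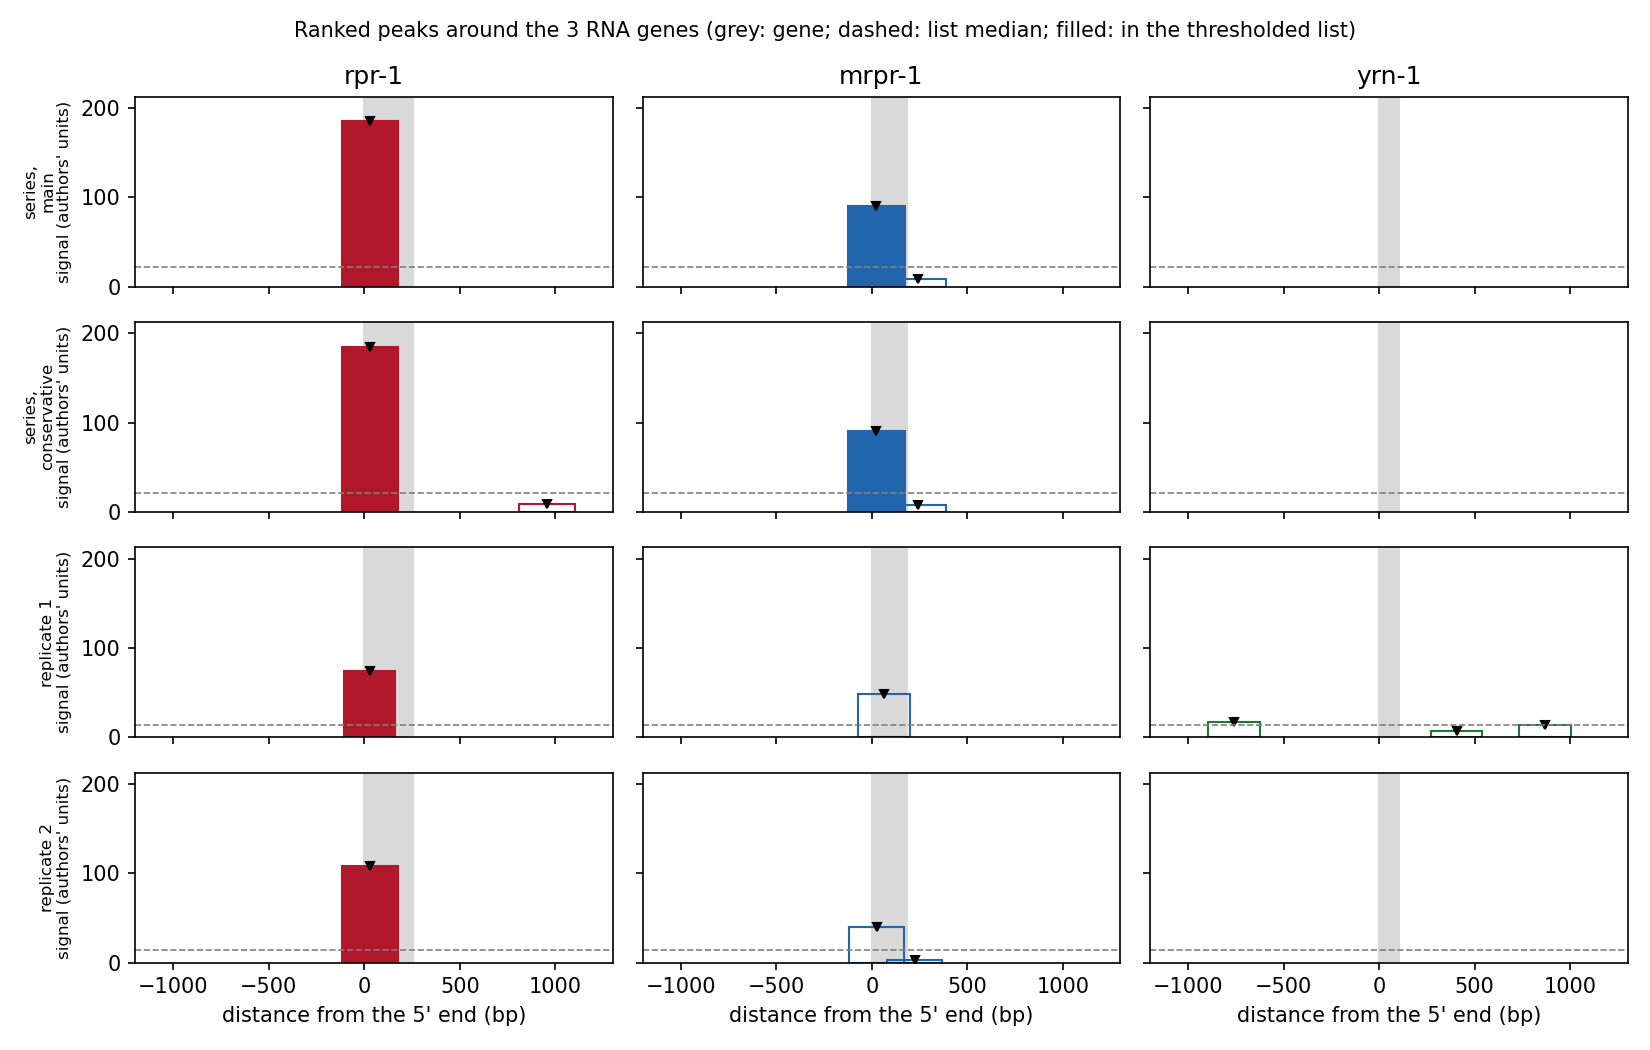
Ranked peaks within 1000 bp of the genes rpr-1, mrpr-1 and yrn-1 (columns) in 4 ranked lists (rows). Bars span the peak and their height is the signal in the authors' units; triangles mark summits, grey the gene, the dashed line the median of the list, and filled bars are peaks also in the thresholded list. The x axis is the distance from the 5′ end in bp. At rpr-1 all 4 bars over the gene start are filled, at mrpr-1 those of the series are filled and those of the replicates are open, and yrn-1 has open bars in replicate 1 only.

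The signal was higher at rpr-1 than at mrpr-1 in each of the 4 ranked lists, and yrn-1 was lower or had no summit. In replicate 1 the signals were 74.0, 48.0 and 6.67, and in replicate 2 they were 108 and 40.3 with no summit at yrn-1. Whether the signals of both replicates are on one scale is not stated, so signals are ordered within a list and not between lists, and no SD over the replicates is given.

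**Figure D2:**
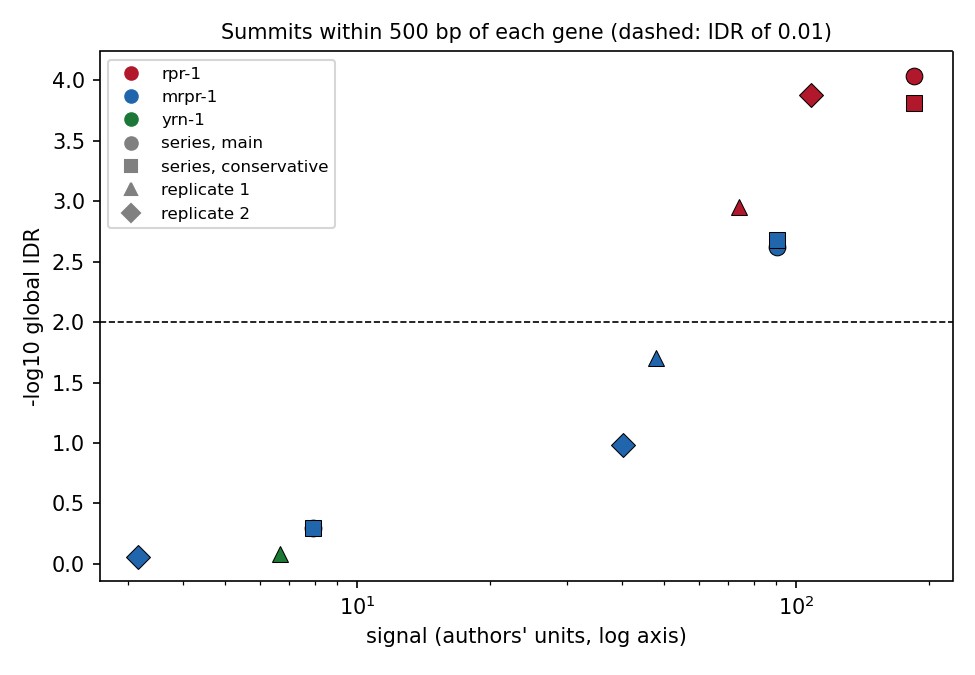
Signal (authors' units, log axis) against −log10 global IDR for each summit within 500 bp of rpr-1, mrpr-1 and yrn-1 in the ranked lists. Colours are genes, shapes are lists, and the dashed line is an IDR of 0.01. The rpr-1 points lie above the line in all 4 lists, mrpr-1 crosses it only in the series lists (2.62 and 2.68), and the yrn-1 point is at 0.08.

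Read against all genes, 2 of the 3 had a main-list summit within 500 bp, where 2.71% of annotated genes did (1271 of 46890). The rule used these lists, so nothing is read from the difference. The conservative list held the same 2 genes, against 2.42% of all genes. The thresholded lists of the replicates held rpr-1 alone, against 0.710% of genes in replicate 1 and 0.928% in replicate 2. In the ranked lists a nearby summit is common. Such a summit was found at 58.5% of genes in the main list, 58.1% in the conservative list, 57.8% in replicate 1 and 56.7% in replicate 2. Among the 6302 genes of 100 to 300 bp, close to the length of these RNA genes, 3.13% had a main-list summit.

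Other genes for small structural RNAs are the nearest comparison. A main-list summit lay within 500 bp of 25% of 612 tRNA genes, 21.7% of 129 snRNA genes and 15.3% of 346 snoRNA genes. The median signal of these summits was 82.6 at tRNA genes (125 distinct summits), 81.4 at snRNA genes (26) and 84.9 at snoRNA genes (51). The rpr-1 signal of 185 was exceeded by 1 summit at tRNA genes, 0 at snRNA genes and 2 at snoRNA genes. The mrpr-1 signal of 90.5 was exceeded by 46, 12 and 23 of them. It was above the median of each class, and close to the middle of the snRNA and snoRNA summits.

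The main-list summits of rpr-1 and mrpr-1, 29 and 24 bp past the 5′ end, lay close to the median for tRNA genes. In replicate 1 the mrpr-1 summit was 66 bp past the 5′ end. The median position of the nearest summit was 24.0 bp at tRNA genes (quartiles -17 and 56), 79.0 bp at snRNA genes (6.75 and 156) and -26.0 bp at snoRNA genes (-60 and 35). From 0 to 50 bp past the 5′ end lay 40.5% of the summits counted for tRNA genes, 14.3% for snRNA genes and 17.0% for snoRNA genes. From 20 to 30 bp, a range that holds the main-list summits of rpr-1 and mrpr-1, the shares were 9.15%, 0% and 1.89%. Few tRNA summits thus lay at the median position itself. Genes that stand close together share summits, so they are not independent.

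**Figure D3:**
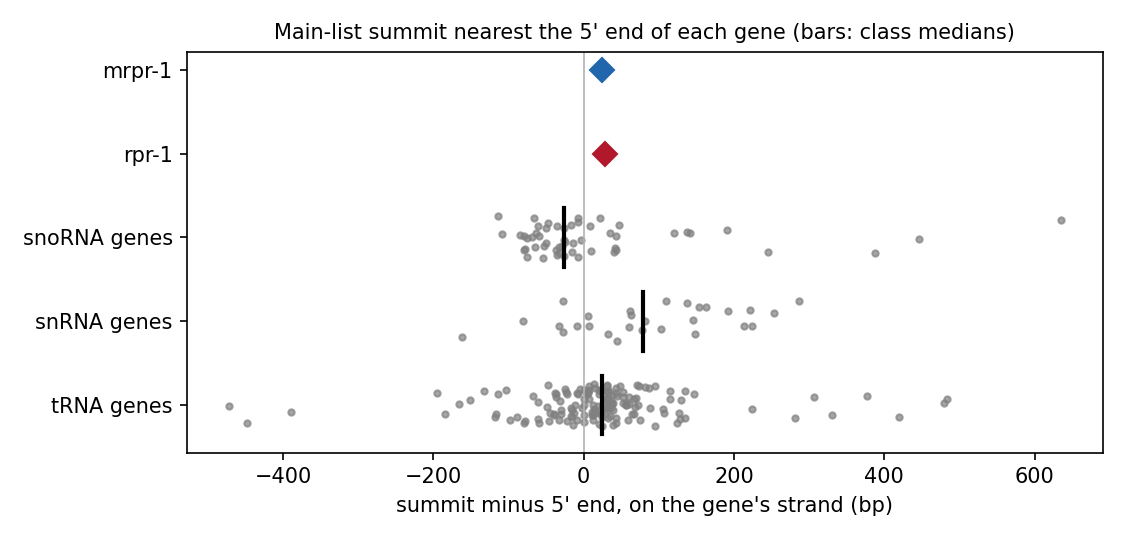
Position of the main-list summit nearest the 5′ end, in bp on the gene's strand, for tRNA, snRNA and snoRNA genes with a summit within 500 bp (grey points, 1 per gene; black bars, medians) and for rpr-1 and mrpr-1 (diamonds). Vertical scatter within a class carries no value. The diamonds, at 29 and 24 bp, sit beside the tRNA median of 24.0 bp, between the snoRNA median of -26.0 bp and the snRNA median of 79.0 bp.

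Of 5 motifs searched, 2 matched at a shared place in the 3 genes, the TATA box before the start and a run of T at the end. The choice of genes did not use sequence. The TATA box letters TATANA began at position -30 on the gene's strand in all 3, rpr-1 included. A match anywhere from 250 bp before to 50 bp after the 5′ end is common, at 39.9% of all genes on the gene's strand. The narrower positions that follow were chosen after the matches were seen. Among 46884 genes with a full promoter window, 0.915% had a match beginning there, and 6.98% of the 129 snRNA genes did. A match beginning at any position from -40 to -20 was found at 6.48% of all genes, 3.43% of tRNA genes, 16.3% of snRNA genes and 4.05% of snoRNA genes. The match is present at yrn-1, which had no thresholded peak, as at rpr-1 and mrpr-1.

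**Figure D4:**
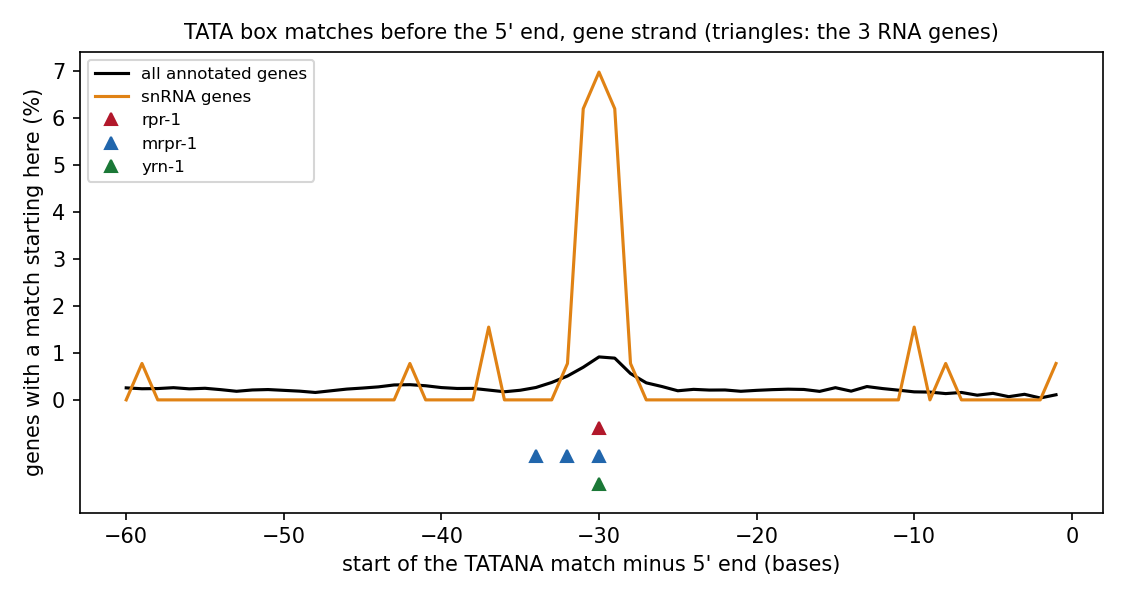
Percentage of genes (y axis) with a TATANA match on the gene's strand that begins at each position before the 5′ end (x axis, in bases), for all annotated genes (black) and snRNA genes (orange). Triangles below 0 mark the matches of rpr-1, mrpr-1 and yrn-1. All 3 genes have a triangle at -30, where the black curve is at 0.915% and the orange one at 6.98%.

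Most genes with a match there had no main-list peak. Of 18 snRNA genes with a match beginning from -31 to -29, 4 had a main-list summit (22.2%), with signals of 80.2 to 133 at 7 to 63 bp past the 5′ end. Of the 111 snRNA genes without one, 24 did (21.6%). Among the other genes annotated as ncRNA, the class of rpr-1, mrpr-1 and yrn-1, the counts were 4 of 53 with the match (7.55%) and 227 of 7702 without (2.95%). For tRNA genes they were 3 of 6 with it and 150 of 606 without (24.8%), and for snoRNA genes 0 of 4 with it and 53 of 342 without (15.5%). For protein-coding genes they were 7 of 409 with it (1.71%) and 728 of 19564 without (3.72%). The share with a summit was thus higher with the match in some classes and lower in others. These shares were not tested against each other.

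The letters used for the internal elements of tRNA genes had no match in the searched windows or in the genes themselves. The windows ran from 250 bp before to 50 bp after the 5′ end. Neither the A box letters TGGNNNAGT nor the B box letters GTTCGANNC matched on either strand at rpr-1, mrpr-1 or yrn-1. The same windows held the A box at 10.5% and the B box at 2.51% of all genes. Of the 1087 windows of tRNA, snRNA and snoRNA genes, 299 held the A box (27.5%) and 102 the B box (9.38%). As 612 of these are tRNA genes, each set of letters was missing from the windows of most tRNA genes. The lack of a match at the 3 genes thus does not show that they lack internal elements. The AP-2 consensus GCCNNNGGC, a palindrome, had 0 matches at the 3 genes and 0 within 100 bp of the 2 main-list summits, and was found at 1.23% of all promoter windows. A run of TTTT, the usual stop signal of RNA polymerase III, began within 1 base of the annotated end of each gene. It began at position -1 from the last base at rpr-1 and mrpr-1 and 1 at yrn-1. TTTT also lay further inside mrpr-1 and yrn-1, on the gene's strand, beginning 123 and 45 bases past the 5′ end. A run beginning from -1 to 1 of the last base was found at 8.38% of all genes, 1.31% of tRNA genes, 5.43% of snRNA genes and 18.8% of snoRNA genes. At genes annotated as ncRNA the share was 5.14%, and at protein-coding genes 10.8%. Runs that began further from the annotated end are not in these shares, so a low share does not show that a class lacks the signal. A match is a description of letters and not a measured site.

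Among the listed protein genes of the same machinery, 1 had a main-list summit within 500 bp, where 3.68% of all protein-coding genes did. A count of 1 in lists this short is not set apart from that background. The Ro protein gene rop-1, whose product binds Y RNA, had none, and neither did popl-1, popl-4 or popl-5, named for the POP proteins of RNase P and MRP, the 3 matched of 12 symbols listed. None was found at the 5 matched genes of TFIIIB and TFIIIC, the general factors of RNA polymerase III (brf-1, tbp-1, tftc-1, tftc-3 and tftc-5), or at the 7 matched SNAPc genes, including snpc-4. The 6 RNA polymerase genes listed for polymerase III include rpac and rpoa genes beside the rpc genes. Of these 6, rpc-2, which encodes a large subunit, had a summit 64 bp past its 5′ end. Its peak lay on chromosome III at 5557281 to 5557576, with a signal of 69.1 and rank 572 of 785. The conservative list had 0 of these 6. In the main ranked list each of these listed and matched genes had a summit nearby, as did 84.0% of protein-coding genes.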

How the data were processed

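Per the deposited file notes, the peak lists are on ce11 and derive from the replicates' alignments and 1 further file, also listed behind a track of fold change over control. Thresholded lists have another input whose content is not stated. No source used here names an aligner or peak caller. The deposited signal is the authors' own value, and the ranked lists give the −log10 of the authors' global IDR. Each thresholded list was found whole in its ranked list. In the series ranked lists 16 columns not tied to a replicate by the labels were left unused.

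Genes came from Ensembl release 115 and sequence from RefSeq, both WBcel235, whose chromosomes contain every peak. Coordinates count from 1. Summits within 500 bp of each gene's body were counted for all 46890 nuclear genes with Python 3.11.15 and pandas 2.3.3, and motifs were searched on both strands. The summit count was tested on simulated data, and the motif search on a planted AP-2 consensus read on the forward strand. The other motifs and the reverse strand were not part of that test. Promoter windows were cut from the genome.

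The genes, lists, motifs and tests were chosen with earlier results of these data known. The naming rule took the 3 genes, their hosts, overlapping genes and neighbours, and listed genes with a main-list summit. Listed genes without a summit were named after their values were seen. Alternatives were other lists, windows, peak markers and gene classes.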

Additional observations from a re-analysis of the deposited data

How the results depend on the processing

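The count of 2 genes with a main-list summit was the same in the conservative list, in the upper 50% of peaks by signal, with windows of 100 to 2000 bp and with any base of the peak counted. In the thresholded list of either replicate alone it was 1, since mrpr-1 is in neither. Those lists are shorter, with 178 and 241 peaks against 785 in the main list. In the replicates' ranked lists the signal was 74.0 to 108 at rpr-1 and 40.3 to 48.0 at mrpr-1. In the main list it was 185 and 90.5. These signals are not compared between lists, because their scale is not defined. The summits of the replicates lay 28 to 29 bp past the 5′ end at rpr-1 and 25 to 66 bp at mrpr-1. The rank by IDR in place of signal was 16 for rpr-1 and 297 for mrpr-1. The share of all genes with a summit, 2.71%, was 1.56% in the upper 50% of peaks. In the replicates' own thresholded lists it was 0.710 to 0.928%. It was 1.77% with 100 bp and 4.49% with 2000 bp, and 25%, 21.7% and 15.3% for tRNA, snRNA and snoRNA genes alone. The shares for genes of 100 to 300 bp, 3.13% in the main list and 76.5% in the main ranked list, were added after the data were seen. So were the TATA and T-run positions. No alternative for signal, position or rank could be computed for yrn-1, which has no main-list summit. No paired analysis was possible because the design has 1 group. Depth is unknown, and with 2 replicates no spread beyond their own could be estimated.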
